A study of Mus musculus with 28 samples.

Results

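The oligodendrocyte precursor and lineage genes comprised 9 genes, *Pdgfra*, *Cspg4*, *Olig1*, *Olig2*, *Sox10*, *Nkx2-2*, *Gpr17*, *Enpp6* and *Bmp4*, picked by symbol from the 23038 genes in the deposited tables. All 9 were found and all 9 passed the filter on low counts in every comparison. They were measured by polyA RNA-seq of bulk tissue in 28 mouse brain libraries from animals on a BL6 (C57BL/6J) background of 2 genotypes, *Nova1* hu/hu and the wild-type control wt/wt. *Nova1* hu/hu mice carry, on both alleles, a mouse *Nova1* gene edited with CRISPR/Cas9 so that an isoleucine in an RNA-binding domain is replaced by the valine of modern humans, along with silent changes made for genotyping, and the founders were crossed repeatedly to wild-type mice; wt/wt mice carry none of these changes. The groups were midbrain of E18.5 embryos (6 hu/hu and 6 wt/wt libraries), midbrain of P21 juveniles (postnatal day 21; 4 and 4), and P21 cortex (4 and 4). The paper states that its RNA-seq drew on both sexes, with male-female pairs in equal numbers. Sex was not used in the tests here. No source used here says whether a library came from a single animal, or whether cortex and midbrain came from the same animals, so the p-values below measure the spread between these libraries.

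Oligodendrocyte precursors arise from ventricular zone progenitors before birth, spread through the brain, and either go on dividing or leave the cycle, pass through a committed stage and become myelinating oligodendrocytes. In rodents most brain myelin is laid down in the weeks after birth, hindbrain and midbrain ahead of cortex. Among the genes described here, *Olig1*, *Olig2*, *Sox10* and *Nkx2-2* encode transcription factors of the lineage, *Pdgfra* and *Cspg4* (NG2) encode surface proteins of the precursor, *Gpr17* encodes a receptor of committed precursors, *Enpp6* encodes a choline-phosphodiesterase of newly forming oligodendrocytes, and *Bmp4* encodes a secreted ligand that holds back oligodendrocyte differentiation.

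Levels between genes are given as TPM, a transcript abundance scaled to exon length and to a fixed sum per library. Library totals ran from 18550922 to 45134998 counts. The P21 dissections followed their labels: 5 cortex identity genes summed to 204 to 232 TPM in the P21 cortex libraries and to 3.77 to 5.21 TPM in the P21 midbrain libraries, and 6 midbrain identity genes to 10.4 to 20.7 TPM and 153 to 189 TPM respectively. At E18.5, where no cortex libraries were analysed here, the midbrain libraries held 83.6 to 99.9 TPM of the midbrain identity genes and 16.6 to 25.3 TPM of the cortex identity genes, the latter above P21 midbrain. *Nova1* itself was at 116 ± 11.01 TPM in hu/hu and 116 ± 11.3 TPM in wt/wt at E18.5 (SD, n = 6 each), which does not check the edit, since the edit is a substitution that leaves the gene in place. Choroid plexus markers (5 genes) varied widely between libraries of one kind, in sum from 12.6 to 3043 TPM in P21 midbrain.

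The 9 genes lie on 8 chromosomes, and only *Olig2* and *Olig1* are neighbours, with 41.1 kb between them on chromosome 16. RefSeq promoter windows (build GRCm38.p6) were found for 6 of the 9 genes, with *Olig1*, *Sox10* and *Gpr17* unmatched. Windows are shown for the gene that changed most with age and region (*Enpp6*, chr8:46986637-46986886, plus strand), for the only one that was lower at P21 than at E18.5 (*Pdgfra*, chr5:75152001-75152250, plus strand) and for a transcription factor of the lineage (*Olig2*, chr16:91225300-91225549, plus strand). Each is the 250 bases before the annotated start, 5′ to 3′, with capitals at every match to the 6-letter E-box CANNTG, the pattern bound by basic helix-loop-helix factors such as the OLIG proteins, or to AACAAT, letters of the SOX family's recognition sequence, on either strand; CANNTG reads the same on both strands and no matches overlap. The *Enpp6* and *Pdgfra* windows lie inside the RefSeq spans of these genes (mm10), which begin further upstream.
Enpp6: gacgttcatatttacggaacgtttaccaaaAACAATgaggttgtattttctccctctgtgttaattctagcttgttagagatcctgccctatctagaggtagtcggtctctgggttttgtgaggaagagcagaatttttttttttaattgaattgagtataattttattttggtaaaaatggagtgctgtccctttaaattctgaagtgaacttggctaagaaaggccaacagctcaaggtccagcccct
Pdgfra: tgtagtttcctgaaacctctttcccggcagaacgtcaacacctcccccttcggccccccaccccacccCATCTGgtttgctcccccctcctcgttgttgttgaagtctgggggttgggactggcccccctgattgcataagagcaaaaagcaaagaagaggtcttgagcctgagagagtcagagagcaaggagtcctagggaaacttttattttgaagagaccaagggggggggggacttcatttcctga
Olig2: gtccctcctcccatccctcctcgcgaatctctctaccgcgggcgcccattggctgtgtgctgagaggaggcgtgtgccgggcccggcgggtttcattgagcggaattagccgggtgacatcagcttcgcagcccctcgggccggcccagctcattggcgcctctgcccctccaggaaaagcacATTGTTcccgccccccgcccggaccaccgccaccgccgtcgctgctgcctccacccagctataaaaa
*Enpp6* and *Olig2* each held 1 AACAAT match and no E-box, and *Pdgfra* held 1 E-box and no AACAAT. Over all 32851 promoter windows of this length, 66.2% held an E-box and 9.42% held AACAAT. Of the windows not shown, *Nkx2-2* and *Bmp4* each held 3 E-boxes, *Cspg4* held neither, and none of these 3 held AACAAT.

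The first question was how these genes differed between E18.5 and P21 in midbrain. Every one of the 9 genes passed the test (quasi-likelihood F-test of edgeR, Benjamini-Hochberg adjusted over all 16330 genes; called at p under 0.05 and adjusted p under 0.1). Across all genes 85.6% were called, so passing the test sets none of the 9 apart. By direction, 8 were higher at P21, against 42.4% of all genes, and 1 was lower, against 43.3%. A rise of at least 2-fold was called for 6 of the 9, against 15.9% of all genes. The median fitted log2 change of the 9 genes was 1.51, beside −0.02 for all genes tested. The TPM ranges of the age groups did not overlap for 6 of the 9 genes, against 61.7% of the 15540 genes with a mean of at least 1 TPM.

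*Enpp6* rose most. At E18.5 it ran from 0.281 to 0.826 TPM in hu/hu (median 0.710) and from 0.284 to 1.19 TPM in wt/wt (median 0.720), on 7 to 36 counts per library. At P21 the 4 hu/hu midbrain libraries held 44.9, 44.1, 41.6 and 47.7 TPM and the 4 wt/wt libraries 50.6, 40.6, 40.9 and 44.9 TPM. Each P21 library was thus far above each E18.5 library. The fitted log2 change was 6.16 ± 0.11 (SE; adjusted p = 1.0e-25 by edgeR), 71.6-fold, above 99.8% of the genes tested.

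*Sox10*, whose product drives myelin gene transcription, was the next to rise. Its E18.5 values ran from 9.58 to 18.7 TPM in hu/hu (median 12.9) and from 8.44 to 19.3 TPM in wt/wt (median 11.9), and its P21 midbrain values were 133, 138, 132 and 149 TPM in hu/hu and 154, 127, 126 and 142 TPM in wt/wt. The fitted log2 change was 3.62 ± 0.11 (SE), 12.3-fold. *Gpr17* followed with 3.23 ± 0.11, 9.37-fold: it was at 13.3 to 28.6 TPM in the 12 E18.5 libraries and at 156, 136, 158 and 137 TPM (hu/hu) and 165, 130.0, 147 and 143 TPM (wt/wt) at P21. The age groups were fully apart for both genes. *Gpr17* overlaps *Lims2*, a gene on the opposite strand, in the GENCODE M21 annotation. Whether the counting used strand is not given in the sources used here, so reads of the pair may be mixed.

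The pair of OLIG genes rose less, and not by the same amount. *Olig1* had the highest level of the 9 genes in each age and region, with 82.9 ± 15.6 TPM at E18.5 (SD, n = 12) and 320.0 ± 11.1 TPM in P21 midbrain (n = 8), a fitted log2 change of 2.15 ± 0.07 (SE). *Olig2* went from 23.7 ± 3.12 to 58.7 ± 3.79 TPM, a fitted log2 change of 1.51 ± 0.06. Neither gene's ranges overlapped between the ages. *Bmp4* rose by a similar fitted amount (log2 1.48 ± 0.11), from 4.73 ± 1.13 TPM at 45 to 100 counts per library to 11.4 ± 0.703 TPM, again without overlap.

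The precursor surface genes and *Nkx2-2* moved least, and their age groups overlapped in TPM. *Pdgfra* was the only gene that fell: 33.8 to 53.9 TPM in the 12 E18.5 libraries against 31.7, 29.7, 32.5 and 32.3 TPM (hu/hu) and 29.7, 28.9, 35.4 and 31.8 TPM (wt/wt) at P21, a fitted log2 change of −0.25 ± 0.08 (SE; adjusted p = 0.0041 by edgeR). *Cspg4* was at 9.02 ± 1.75 TPM at E18.5 and 10.7 ± 0.759 TPM at P21, with a fitted log2 change of 0.44 ± 0.09 and adjusted p = 3.3e-05 by edgeR. The exact two-sided permutation test on its log2 TPM gave p = 0.0207, or 0.0516 after adjustment over the 45 such tests. *Nkx2-2*, which is required for timely oligodendrocyte differentiation, rose by 0.69 ± 0.08 on the fitted log2 scale, from 9.05 ± 1.23 to 12.7 ± 1.59 TPM. On the permutation tests the 6 genes without overlap reached p = 7.94e-06, the smallest the 125970 groupings can give.

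Beside these changes, 11 myelin genes summed to 130 to 174 TPM at E18.5 and to 24105 to 27033 TPM in P21 midbrain. With library totals alone in place of TMM factors, the median of all genes moved from −0.02 to −0.17 on the log2 scale, and *Pdgfra* and *Cspg4* to −0.40 and 0.29. All 9 directions and calls held under that scaling. In these bulk libraries fewer cells of a type and less RNA per cell cannot be told apart. *Pdgfra* is also expressed by meningeal fibroblasts, whose 5 marker genes summed to 344 to 532 TPM at E18.5 and 119 to 159 TPM in P21 midbrain and so moved with it, and *Cspg4* by mural cells, whose 5 markers summed to 226 to 309 TPM and 233 to 280 TPM. Progenitor and cycling genes (5) summed to 666 to 852 TPM and 86.7 to 119 TPM. The part of these cells in the results was not tested.

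**Figure D1:**
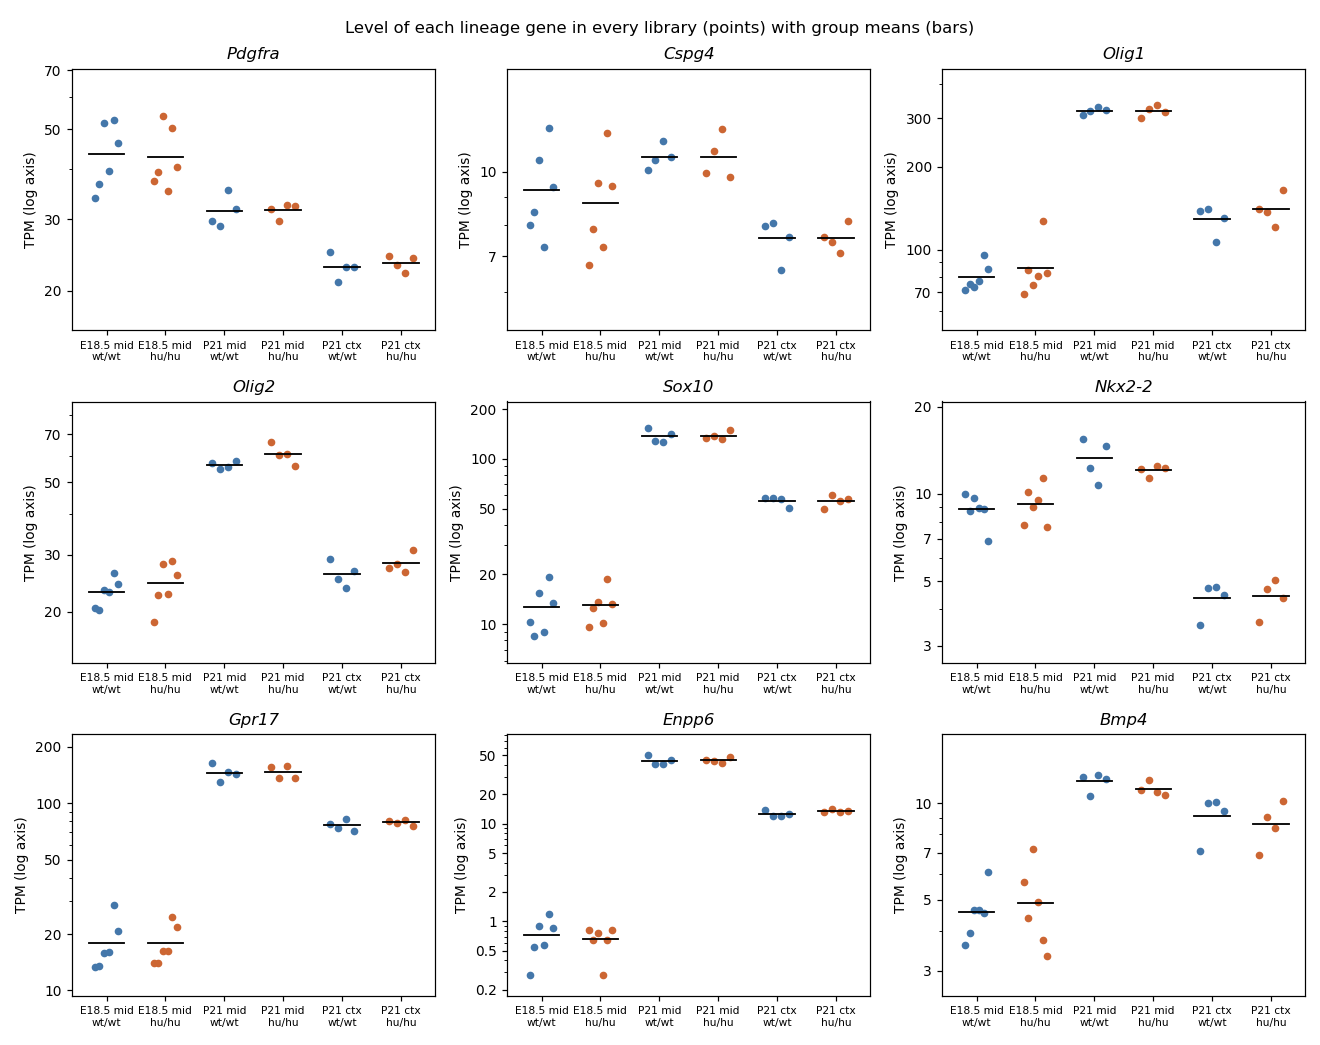
Level of each of the 9 genes in TPM (vertical log axis, a different range per panel) for the 6 groups along the horizontal axis, mid for midbrain and ctx for cortex; blue points are wt/wt libraries, orange points hu/hu libraries and black bars group means. *Enpp6*, *Sox10* and *Gpr17* stand far higher in P21 midbrain than at E18.5, *Pdgfra* stands lower, and the colours overlap in every pair of groups.

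The second question was how the regions differed at P21. All 9 genes were lower in cortex than in midbrain and passed the test (edgeR's quasi-likelihood test over 16345 genes), where 75.6% of all genes were called and 37.9% were called lower in cortex. Lower by at least 2-fold were 5 of the 9, against 7.81% of all genes. The median fitted log2 difference, cortex minus midbrain, was −1.04 for the 9 genes and −0.00063 for all genes tested. The TPM ranges of cortex and midbrain did not overlap for any of the 9, against 48.3% of genes apart, and the exact permutation p was 0.000155 for each, the smallest that 12870 groupings can give.

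*Enpp6* differed most here as well, with 13.3, 14.2, 13.1 and 13.5 TPM in hu/hu cortex and 13.7, 12.1, 11.9997 and 12.5 TPM in wt/wt cortex, each below the lowest midbrain library at 40.6 TPM. Its fitted log2 difference was −1.69 ± 0.05 (SE; adjusted p = 1.9e-20 by edgeR), 3.23-fold lower. *Nkx2-2* came next at −1.44 ± 0.09. It held 3.63, 4.72, 5.03 and 4.39 TPM in hu/hu cortex and 3.53, 4.74, 4.79 and 4.47 TPM in wt/wt cortex, below the lowest midbrain value of 10.7 TPM, on 89 to 146 counts per cortex library. These cortex values were also below every E18.5 midbrain library, whose lowest was 6.86 TPM. *Nkx2-2* is also known from ventral cells of the brain stem outside this lineage, whose part in its region difference was not tested.

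The other transcription factors were lower in cortex by similar amounts. The fitted log2 differences were −1.22 ± 0.04 (SE) for *Sox10*, −1.17 ± 0.05 for *Olig1* and −1.04 ± 0.04 for *Olig2*. In TPM these were 55.9 ± 3.73 against 138 ± 9.91 for *Sox10*, 135 ± 16.8 against 320.0 ± 11.1 for *Olig1* and 27.2 ± 2.21 against 58.7 ± 3.79 for *Olig2* (SD, n = 8 libraries per region). *Olig1* was the most variable of the 3 in cortex, with 140.2, 138, 122 and 165 TPM in hu/hu and 138, 141, 107 and 130.3 TPM in wt/wt.

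*Gpr17* differed by −0.84 ± 0.05 on the fitted log2 scale, at 75.6 to 81.9 TPM in hu/hu cortex and 70.8 to 82.5 TPM in wt/wt cortex, all below midbrain. The smallest differences were those of the precursor surface genes and the ligand: *Cspg4* −0.42 ± 0.05, *Pdgfra* −0.37 ± 0.04 and *Bmp4* −0.28 ± 0.08, the last with adjusted p = 0.0028 by edgeR. *Pdgfra* held 24.4, 23.1, 22.2 and 24.0 TPM in hu/hu cortex and 24.9, 20.97, 22.8 and 22.9 TPM in wt/wt cortex, all under the lowest midbrain library at 28.9 TPM. *Bmp4* came close to overlap, with a highest cortex value of 10.1 TPM and a lowest midbrain value of 10.5 TPM. Beside these, myelin genes summed to 7157 to 8028 TPM in cortex, meningeal fibroblast markers to 77.2 to 116 TPM, mural markers to 240.1 to 279 TPM and choroid plexus markers to 1161 to 2209 TPM. Their part in the differences was not tested.

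**Figure D2:**
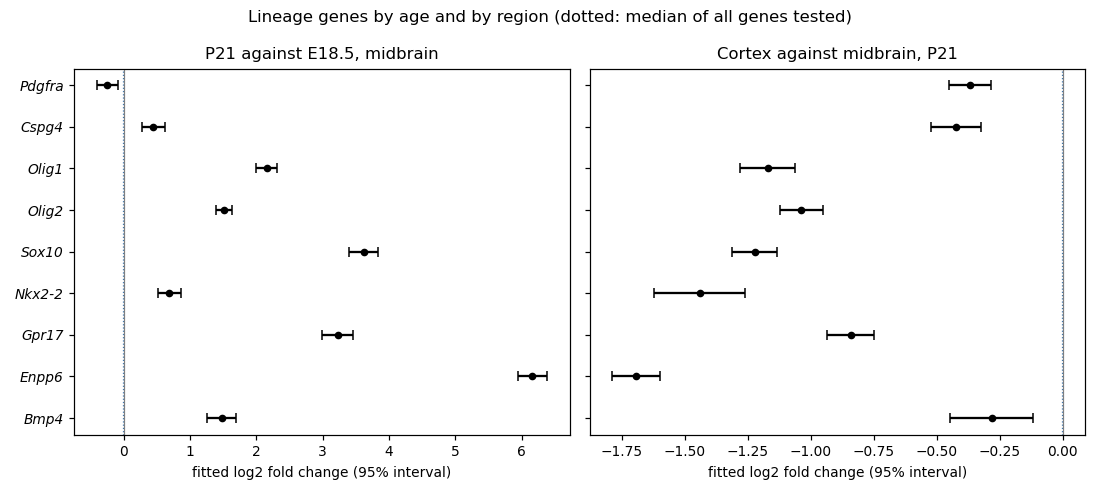
Fitted log2 fold change of each gene (points) with its 95% confidence interval (bars) on the horizontal axes, for P21 against E18.5 in midbrain (left) and cortex against midbrain at P21 (right); dotted lines mark the median of all genes tested. With age the points run from −0.25 (*Pdgfra*) to 6.16 (*Enpp6*), and between regions all 9 lie below 0.

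Since all scaling between libraries cancels in a ratio of genes within a library, 6 ratios were compared, giving 30 exact two-sided permutation tests with Benjamini-Hochberg adjustment over them. With age, each of the 6 ratios changed without overlap, with p = 7.94e-06 by the exact permutation test, the smallest possible, and adjusted p = 3.97e-05. Of single genes, 61.7% were already apart with age. How often ratios of other gene pairs come apart with age or region was not tested, so this sets none of the 6 ratios apart. The ratio of *Gpr17* to *Pdgfra*, a committed-stage gene over a precursor gene, went from 0.302 to 0.543 at E18.5 to 4.15 to 5.54 at P21, an 11.4-fold rise of the geometric mean. *Enpp6* over *Pdgfra* went from 0.00799 to 0.0225 to 1.16 to 1.70, a 93.1-fold rise. *Cspg4* over *Pdgfra* rose 1.62-fold, *Sox10* over *Olig2* 4.45-fold and *Olig1* over *Olig2* 1.57-fold. *Bmp4* over *Gpr17* fell 3.42-fold. The genes of each ratio thus did not change by equal amounts, whatever the scaling of the libraries.

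Between regions, 3 of the 6 ratios passed. *Gpr17* over *Pdgfra* was 1.39-fold lower in cortex, at 3.10 to 3.70 (adjusted p = 0.000583, exact permutation test), and *Enpp6* over *Pdgfra* was 2.50-fold lower, at 0.525 to 0.612 (adjusted p = 0.000583), both without overlap with midbrain. *Bmp4* over *Gpr17* was 1.46-fold higher in cortex, at 0.0859 to 0.136 against 0.0688 to 0.0866 (adjusted p = 0.00104, exact permutation test), with overlapping ranges. The ratios among transcription factors differed less, by −0.19 ± 0.07 on the log2 scale for *Sox10* over *Olig2* (SE; adjusted p = 0.0681, exact permutation test) and −0.14 ± 0.06 for *Olig1* over *Olig2* (adjusted p = 0.0835), and missed the threshold of 0.05, although each passed without P21 midbrain hu/hu replicate 1 (0.0284 and 0.00886) and without P21 cortex wt/wt replicate 2 (0.0403 and 0.0382), and the first also without P21 cortex wt/wt replicate 3 (0.0322). *Cspg4* over *Pdgfra* differed by −0.05 ± 0.06 (SE; adjusted p = 0.625, exact permutation test). The genotypes were not told apart by any ratio: the smallest adjusted p of the 18 tests was 0.429 (exact permutation test), and with 4 against 4 libraries the smallest p possible is 0.0286. These tests did not pair hu/hu and wt/wt libraries of the same replicate number, although such libraries deviated together. They could thus miss a difference that a paired test would find.

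**Figure D3:**
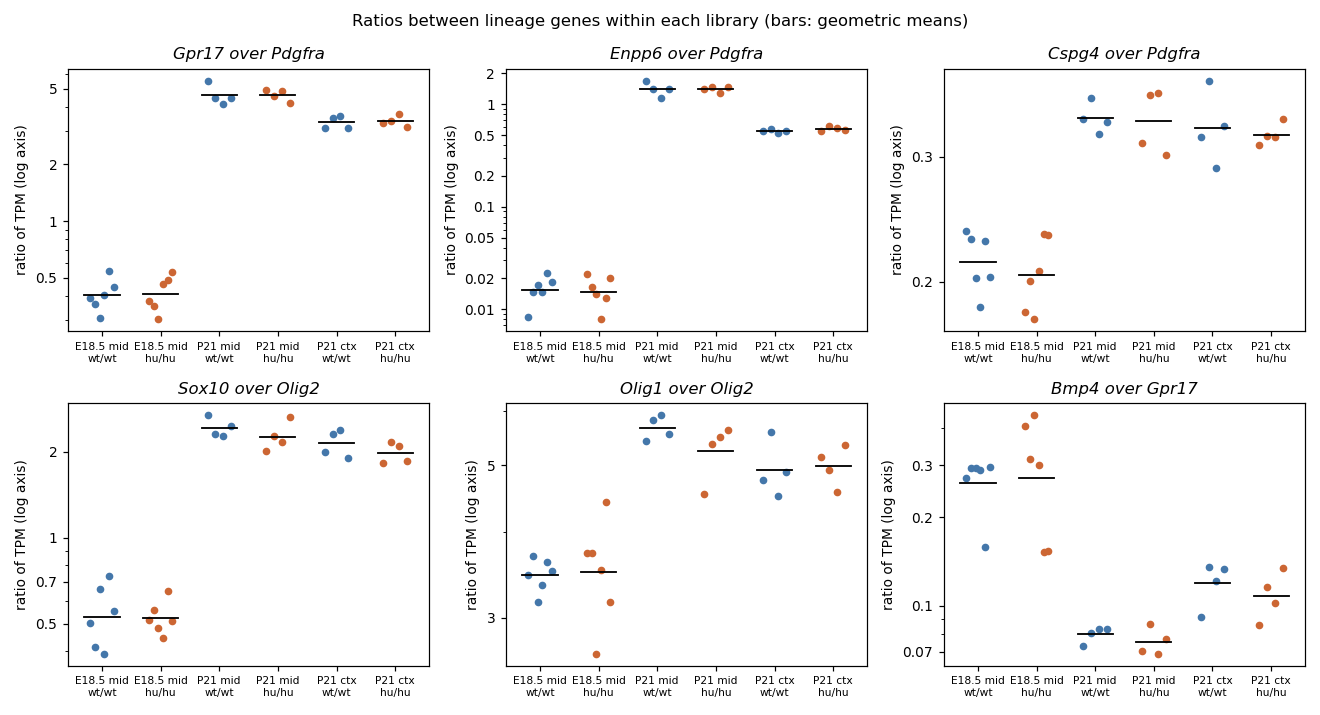
Ratio of the TPM of one gene to another within each library (vertical log axis) for the 6 groups along the horizontal axis; blue points are wt/wt, orange points hu/hu and bars geometric means. Every ratio shifts between E18.5 and P21 midbrain with no overlap, with *Enpp6* over *Pdgfra* moving most and *Bmp4* over *Gpr17* falling, and the 2 colours of each pair of groups overlap.

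In RefSeq (mm10) the genes span chr5:75151322-75198206 (*Pdgfra*), chr9:56865104-56899870 (*Cspg4*), chr16:91269769-91271939 (*Olig1*), chr16:91225550-91228677 (*Olig2*), chr15:79154913-79164490 (*Sox10*), chr2:147176485-147195434 (*Nkx2-2*), chr18:31942999-31949890 (*Gpr17*), chr8:46939197-47096762 (*Enpp6*) and chr14:46383525-46390669 (*Bmp4*). *Bmp4* also overlaps a counted gene on the other strand, *Gm15217*.

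The order of the levels also changed. At E18.5 the order in mean TPM was *Olig1*, *Pdgfra*, *Olig2*, *Gpr17*, *Sox10*, *Nkx2-2*, *Cspg4*, *Bmp4* and *Enpp6*, in which neighbours from *Olig2* down to *Bmp4* had overlapping ranges. *Nkx2-2* and *Cspg4* were not separable there, *Nkx2-2* being the higher in 6 of 12 libraries. In P21 midbrain *Gpr17* and *Sox10* had moved up behind *Olig1*, and *Enpp6* from the last place to the fifth, above *Pdgfra* in 8 of 8 libraries. *Gpr17* and *Sox10* overlapped in P21 midbrain, as did *Nkx2-2*, *Bmp4* and *Cspg4*. In P21 cortex *Pdgfra* stood above *Enpp6* in 8 of 8 libraries and *Nkx2-2* was the last. Among all genes above 0, *Enpp6* moved from percentile 21.7 at E18.5 to percentile 76.8 (midbrain) and 53.6 (cortex) at P21.

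The third question was whether these genes differed between *Nova1* hu/hu and wt/wt. None of the 9 was called by edgeR's quasi-likelihood test in the midbrain at either age or in the cortex, where 0% of all genes were called in each, and none was called by DESeq2. In P21 midbrain the paper did call *Gkn3* between genotypes, with edgeR at the same thresholds, a call not reached here. At an unadjusted p under 0.05 edgeR found 0, 1 and 0 of the 9, against 1.29%, 2.67% and 2.85% of all genes, and DESeq2 also found 0, 1 and 0. The TPM ranges of hu/hu and wt/wt overlapped for each gene in each setting, while 0.0515%, 1.95% and 2.03% of genes were apart. The gene with the smallest p was *Olig2* in P21 midbrain, at 66.3, 60.7, 61.1 and 56.1 TPM in hu/hu and 57.1, 55.0, 55.6 and 57.9 TPM in wt/wt. Its fitted log2 change was 0.12 ± 0.05 (SE; adjusted p = 0.99996 by edgeR), with an exact permutation p of 0.0857 on log2 TPM. The intervals bound the change that could have gone unseen: the 95% interval lay within 1.5-fold either way for 9 of 9 genes in each P21 tissue and for 8 of 9 at E18.5. The exception was *Enpp6*, whose E18.5 interval on the log2 scale ran from −0.77 to 0.50 on 7 to 36 counts per library.

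Neither the age nor the region difference was found to depend on genotype. The genotype-by-age and genotype-by-region terms called 0 of the 9 genes and 0% of all genes by edgeR, and 0 by DESeq2. At an unadjusted p under 0.05 they held 0 of the 9 each, against 1.86% and 2.28% of all genes. The median of the 9 genes' fitted log2 changes between genotypes was 0.03 at E18.5, 0.01 for P21 midbrain and 0.04 for P21 cortex, with medians over all genes of −0.00062, −0.0001 and −0.00071. Of the 9 fitted changes, those above 0 numbered 5 at E18.5, 7 for P21 midbrain and 8 for P21 cortex. *Olig1* was the highest in cortex at 0.13 ± 0.08 (SE; adjusted p = 0.99985 by edgeR). Many of the 9 genes vary together between libraries, so their signs are not separate observations, and the counts of signs were not tested. Since same-numbered libraries of the genotypes deviated together, a fit with the replicate number as a block was also made. It called none of the 9 genes. *Olig1* in P21 cortex then had an unadjusted p of 0.0093 and an adjusted p of 0.802 by edgeR at a log2 change of 0.13 ± 0.05.

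**Figure D4:**
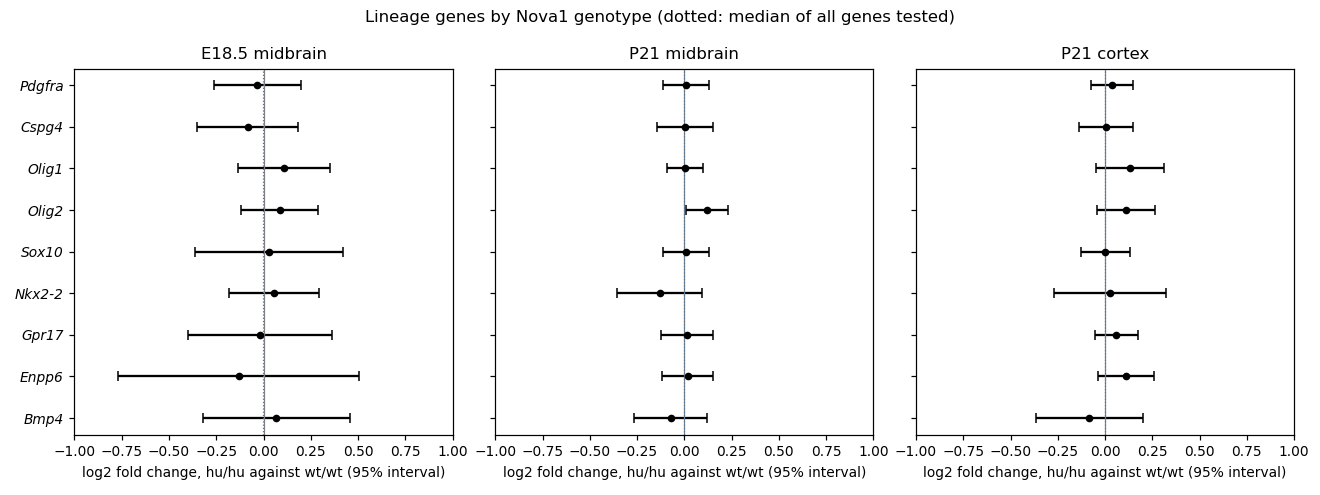
Fitted log2 fold change of each gene, *Nova1* hu/hu against wt/wt (points), with its 95% confidence interval (bars) on the horizontal axis, for midbrain at E18.5 and P21 and for P21 cortex; dotted lines mark the median of all genes tested. All points lie between −0.13 and 0.13, only the interval of *Olig2* in P21 midbrain leaves 0 outside, and *Enpp6* at E18.5 has the widest interval.

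At E18.5 the 9 genes varied more among libraries than most genes did, and several of them in step with the replicate number. The coefficient of variation over the 12 libraries ran from 13.2% (*Olig2*) to 37.0% (*Enpp6*), each above the 10.6% that was the median of all genes. Low counts add to this spread for some of them: E18.5 libraries held 7 to 36 counts of *Enpp6*, 45 to 100 of *Bmp4* and 113 to 208 of *Nkx2-2*. How much of the spread this makes up was not tested. In P21 midbrain it ran from 3.48% (*Olig1*) to 12.6% (*Nkx2-2*), around a median of 7.16%. *Gpr17* shows the pattern at E18.5: replicates 1 to 6 held 14.0, 14.0, 16.3, 16.3, 24.5 and 21.8 TPM in hu/hu and 13.3, 13.4, 15.9, 16.1, 28.6 and 20.7 TPM in wt/wt, so that the same numbers were high in both genotypes. *Sox10* was also highest in replicate 5 of each genotype, at 18.7 and 19.3 TPM, and *Cspg4* at 11.8 and 12.02 TPM. *Pdgfra* was high in replicates 3 and 5, at 53.9 and 50.5 TPM in hu/hu and 51.9 and 52.7 TPM in wt/wt.

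Of the spread of log2 expression within the genotypes at E18.5, replicate number held 96.5% for *Gpr17*, 96.4% for *Cspg4*, 91.2% for *Pdgfra*, 87.8% for *Olig1*, 86.7% for *Sox10* and 81.2% for *Olig2*, where the median over all genes was 73.4%. *Nkx2-2* (60.6%), *Enpp6* (49.2%) and *Bmp4* (28.3%) lay under that median. With a single library of each genotype per number, unrelated libraries would on average give the number as large a share as the remainder. The shares of *Enpp6* and *Bmp4* at E18.5 were no higher than that, and a share here is not the variance explained by the number. At P21 the share ran from 6.31% (*Bmp4*) to 81.7% (*Pdgfra*) in midbrain, where the median of all genes was 60.1%, and from 35.6% (*Sox10*) to 98.6% (*Nkx2-2*) in cortex, where it was 62.8%. What the number marks, a litter, a sex, a dissection or a preparation, is not given in the labels. Both sexes were used according to the paper, and whether same-numbered libraries share a sex was not tested. Astrocyte markers (5) varied alongside: their sum was highest in replicate 5 of wt/wt (1047 TPM) and of hu/hu (948 TPM), and 703 to 750.2 TPM in replicate 4. Their part in the pattern was not tested.

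**Figure D5:**
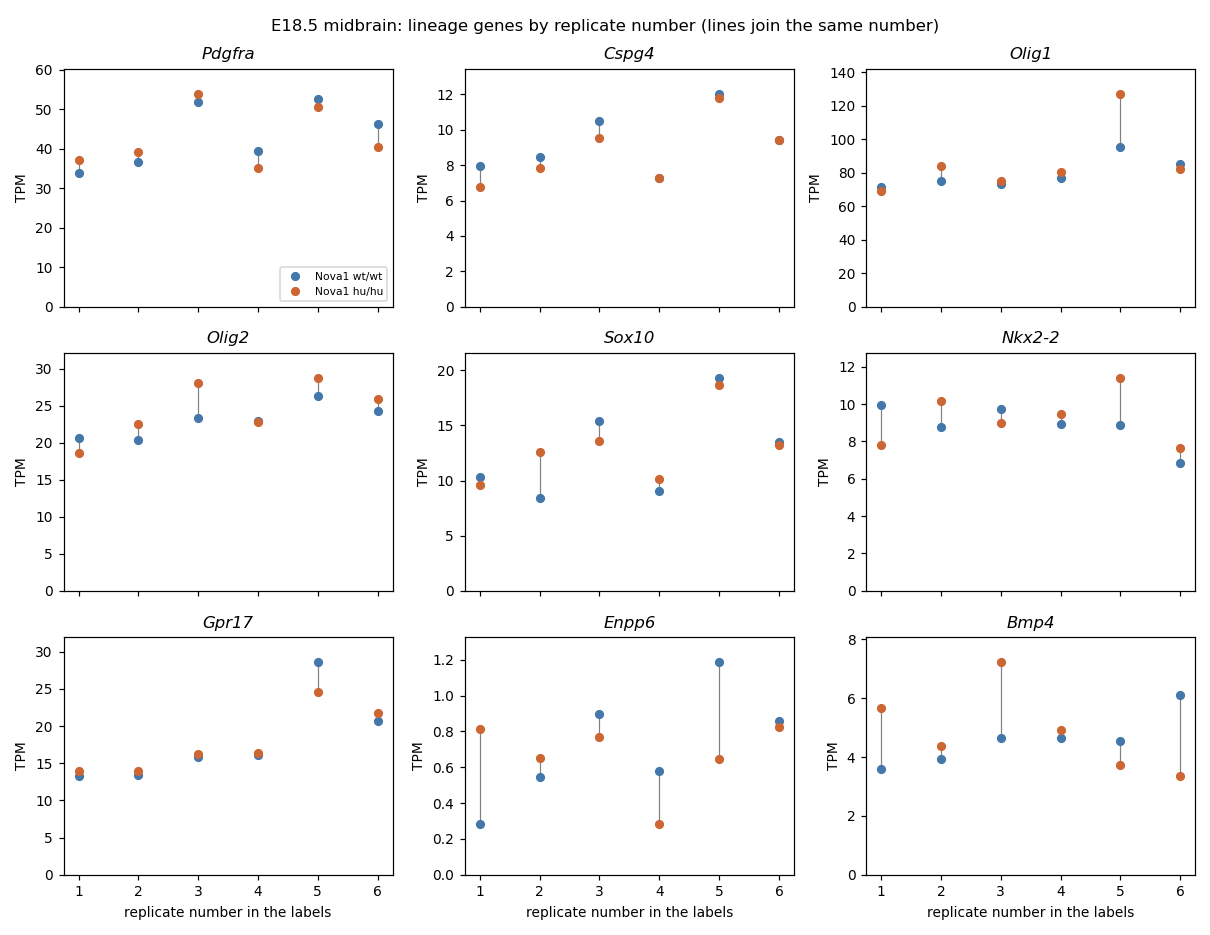
TPM of each gene in the 12 E18.5 midbrain libraries (vertical axis from 0) by the replicate number in the labels (horizontal axis); blue is wt/wt, orange is hu/hu and grey lines join libraries of the same number. *Gpr17*, *Cspg4*, *Sox10* and *Olig1* peak at number 5 in both genotypes, whereas the points of *Bmp4* and *Enpp6* with the same number lie far apart.

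Pooled over the 6 groups, the deviations of the 9 genes from their group means went together for many pairs. Pearson's r over the 28 libraries was above 0 for 26 of the 36 pairs, with a median of 0.40, given as a description since same-numbered libraries vary together. The highest were *Cspg4* with *Sox10* (0.77), with *Olig2* (0.73) and with *Pdgfra* (0.73), and *Sox10* with *Gpr17* (0.73). The lowest was *Nkx2-2* with *Enpp6* (−0.29). Each of the 9 genes had its largest coefficient of variation at E18.5. For *Cspg4* it was 19.4%, beside 7.12% (midbrain) and 6.90% (cortex) at P21, and for *Nkx2-2* 13.6%, beside 12.6% and 12.5%. The E18.5 libraries can therefore weigh most in the pooled r, which does not describe each group. Whether other gene pairs go together as often was not tested.

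The other genes most like each of the 9 were read off as the highest Pearson r of log2 CPM (counts scaled to library size) over the 28 libraries among 15540 genes, libraries that fall into 3 kinds by age and region. *Sox10* was most like *Sparcl1* and *Fgf1* (r = 0.997 and 0.996), *Enpp6* like *Slc39a12*, *Car2* and *Acsl6* (0.996, 0.995 and 0.995), *Gpr17* like its overlapping neighbour *Lims2* (0.995), *Plxdc1* and *E030003E18Rik* (0.992 each), *Olig1* like *Tprn*, *Tmem229a* and *Specc1* (0.987, 0.986 and 0.985) and *Olig2* like *Aqp4*, *Parvb* and *Endod1* (0.984, 0.983 and 0.982). The others had looser partners. These were *Slc25a1*, *Chrnb2* and *Ptch1* for *Nkx2-2* (0.964, 0.956 and 0.954), *Cdadc1*, *Mtmr6* and *Tspan3* for *Bmp4* (0.958, 0.958 and 0.954), *Ednrb*, *Mast1* and *Adamts9* for *Pdgfra* (0.942, 0.942 and 0.937) and *Kif1a* and *Ufsp1* for *Cspg4* (0.917 and 0.889).

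Related genes were described by list, with 42.4% of all genes called higher at P21 and 43.3% lower. Of 11 myelin genes 11 rose at P21 (median log2 change 8.08, beside −0.02 for all genes). *Opalin* was at 0 in all 12 E18.5 libraries and at 215 to 279 TPM in P21 midbrain, and *Mobp* went from 0.0488 to 0.823 TPM to 1519 to 1721 TPM. Of 12 other committed-precursor and newly formed oligodendrocyte genes, which include *Lims2*, the gene overlapping *Gpr17*, 10 rose and 2 fell (median 2.59). *Myrf*, a transcription factor needed for myelination, rose by 5.62, *Bcas1* by 5.13 and *Kif19a* by 3.35, while *Tcf7l2* and *Mycl* fell by 1.19 and 1.06. Of 15 other precursor genes 6 rose and 6 fell (median −0.01), shares near those of all genes, with *Neu4* (6.30), *Matn4* (3.25) and *Susd5* (3.06) rising most, and *Vcan* (−1.99) and *Cacng4* (−1.31) among those that fell. Of 10 other lineage regulators (median −0.19) 4 rose, led by *Nkx6-2* (3.23), *Sox8* (2.25) and *Zeb2* (1.16), and 5 fell, led by *Id4* (−1.57), *Myt1* (−1.20) and *Hes5* (−1.14). Several regulator genes, such as *Id4* and *Hes5*, are also expressed by neural progenitors and astrocytes, whose marker sums are given here and whose part was not tested: astrocyte markers went from 703 to 1047 TPM at E18.5 to 3305 to 3681 TPM in P21 midbrain.

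*Pdgfra* encodes a receptor for PDGF ligands. Of 5 genes (4 PDGF ligands and *Pdgfrb*; median 0.26) 3 were called higher at P21, *Pdgfd* by 1.81, *Pdgfa* by 0.59 and *Pdgfc* by 0.26, and none was called lower, where 42.4% of all genes were called higher and 43.3% lower. Beside *Bmp4*, of 14 other BMP pathway genes (median −0.11) 5 rose, with *Smad7*, an inhibitory Smad, at 2.06, *Bmp2* at 1.39 and the receptor *Bmpr1b* at 0.87, and 6 fell, with *Bmp6* (−0.87), *Bmp7* (−0.79) and *Smad1* (−0.78) falling most; these counts lie near the shares of all genes.

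Between regions these lists were compared in the same fit, where 37.7% of all genes were called higher and 37.9% lower. All 11 myelin genes were lower in cortex (median −1.60), led by *Ugt8a* (−2.09) and *Aspa* (−2.06), as were 11 of 12 committed-precursor genes (median −1.01), led by *Tcf7l2* (−3.74), *Myrf* (−1.87) and *Bcas1* (−1.50). Of 15 other precursor genes (median −0.34) 11 were lower, with *Lhfpl3* at −1.23, *Megf11* at −0.84 and *Tnr* at −0.84, and 3 were higher, among them *Cspg5* (1.16) and *Sox5* (0.83). Of 10 regulators (median 0.13) 5 were higher, led by *Tcf4* (1.51), *Hes5* (0.69) and *Id2* (0.58), and 4 lower, led by *Nkx6-1* (−4.28), *Nkx6-2* (−1.39) and *Sox8* (−0.59). *Tcf7l2* is also a gene of thalamic and midbrain neurons, and *Nkx6-1* one of ventral midbrain neurons.

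In the PDGF list (median −0.12) *Pdgfb* (1.16) and *Pdgfa* (0.21) were higher in cortex, and *Pdgfd* (−1.29) and *Pdgfrb* (−0.17) lower. In the BMP list (median −0.18) 2 antagonists of BMP ligands, *Chrd* (1.73) and *Nog* (1.03), were higher in cortex and 8 genes were lower, led by *Smad7* (−0.81), *Bmp2* (−0.63) and *Bmpr2* (−0.43), while *Bmp4* itself was lower by the smallest amount of the 9 genes. No gene of these lists was called between genotypes in any of the 3 settings.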

How the data were processed

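PolyA RNA-seq libraries (28) were grouped by age, region and genotype from the labels. The authors mapped paired-end reads to mm10 (OLego) and summarised them by gene (Quantas); strand use and the annotation release are not given in the sources used here. For each gene they deposited its expected count, exon length and RPKM. The deposited RPKM equals count over exon length and library total (largest relative difference 2.27e-13). Deposited expected counts, not whole for 751 to 2711 genes per library, were rounded for the tests; TPM was computed from them unrounded.

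Tests used edgeR 4.0.16 in R 4.3.3 (glmQLFit and glmQLFTest, TMM factors, filterByExpr; calls at p under 0.05 and adjusted p under 0.1, as a stricter rule also 2-fold), on the libraries of each comparison, with genotype as a covariate for age and region. Counts as low as those of *Enpp6* at E18.5 limit precision. The SE of a fitted log2 change was derived as its size over the square root of its F statistic. The 95% intervals were built on that SE with the t distribution. Levels and ratios were compared by two-sided exact permutation tests over all groupings, without pairing by replicate number. The edgeR tests of genotype, age and region were checked on simulated libraries drawn independently. Changes of at least 2-fold were planted there, only in genes with higher counts. Recovery of smaller changes or of changes at low counts was thus not checked. Nor were the interaction terms, DESeq2, the replicate block or the effect of libraries that vary together. Alternatives were DESeq2 1.42.0, RLE factors, no filter, a replicate block, single libraries left out, one genotype, 0.5 added to each TPM and the deposited RPKM, and, chosen after seeing the data, library totals alone and myelin genes removed. Cerebellum and knockout libraries were not analysed here.

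Same-numbered hu/hu and wt/wt libraries correlated in their deviations from group means (0.232 to 0.446 at E18.5, 0.270 to 0.299 in P21 midbrain, 0.239 to 0.296 in P21 cortex). Different-numbered libraries ran from −0.334 to 0.241, −0.327 to 0.191 and −0.224 to 0.168 in the same order. Numbers thus paired libraries within each P21 tissue. At E18.5 they did so less sharply, since the ranges overlapped, with hu/hu replicate 5 and wt/wt replicate 6 at 0.241. The members, lists and tests were chosen with earlier results of these data known. Genes named are the 9 members, per member the 3 genes of highest r (prior count 2), and per list up to 3 called genes each way. Some genes under this rule are not reported here. *Myrf* and *Mycl* were matched by identifier. Gene spans and promoters came from RefSeq, and overlaps from GENCODE M21. The motif letters were settled with the promoter windows in view.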

Additional observations from a re-analysis of the deposited data

Results flagged for a closer look

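Within each group of 4 or 6 libraries, the highest and lowest TPM of each of the 9 genes were compared with the rest of the group (54 gene and group combinations). In 2 of them 1 library stood apart by Dixon's 95% criterion, which chance meets in about 1 in 20 groups. *Olig1* was at 127 TPM in replicate 5 of E18.5 midbrain *Nova1* hu/hu, above the other 5 libraries at 69.3 to 84.3 TPM; the wt/wt library of the same number was the highest of its group too, at 95.4 TPM. *Enpp6* was at 0.281 TPM in replicate 4 of E18.5 midbrain *Nova1* hu/hu, below the other 5 libraries at 0.644 to 0.826 TPM. Every combination with P21 libraries lay within the criterion.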

How the results depend on the processing

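The counts of genes called (9 with age, 9 with region, 0 with genotype and 0 for each interaction) were the same under every alternative run, and no call with age or region was lost or turned. Leaving out single libraries kept adjusted p (edgeR) at or below 0.0108 with age and 0.00786 with region, and at or above 0.960 for genotype. The replicate block gave 9, 9 and 0 calls in the same way, with age changes from −0.16 (*Pdgfra*) to 6.37 (*Enpp6*) and the smallest genotype adjusted p at 0.802. Across regions, same-numbered libraries correlated at −0.24 to −0.15 and across ages at −0.19 to 0.22. A shared number thus did not by itself mark like libraries there. In both genotypes, numbers 1 and 2 of cortex correlated positively with numbers 3 and 4 of midbrain. The same held for 3 and 4 of cortex with 1 and 2 of midbrain. Deviations from a group mean cancel within the group, so these positive values are not separate from the negative ones at shared numbers. What lies behind this pattern was not tested. The 9 ratio tests that passed did so with 0.5 added to each TPM too. Between regions *Sox10* over *Olig2* passed without P21 cortex wt/wt replicate 2 (adjusted p = 0.0403, exact permutation test), P21 cortex wt/wt replicate 3 (0.0322) or P21 midbrain hu/hu replicate 1 (0.0284), and *Olig1* over *Olig2* without P21 cortex wt/wt replicate 2 (0.0382) or P21 midbrain hu/hu replicate 1 (0.00886). Over all genes, DESeq2 called 1 gene between genotypes in P21 midbrain and the block 4, where edgeR called 0; the block gave 813, 735 and 897 genes at an unadjusted p under 0.05 for E18.5 midbrain, P21 midbrain and cortex, against 201, 426 and 450 without it.

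Among the uncalled genotype differences, *Olig2* in all 3 settings, *Nkx2-2* and *Bmp4* in P21 midbrain, and *Olig1*, *Gpr17* and *Enpp6* in P21 cortex kept their sign under every alternative run; the others turned under at least 1. Library totals alone (chosen after seeing the data) moved the median of all genes to 0.022 at E18.5, −0.023 in P21 midbrain and −0.011 in P21 cortex, and with that shift gave log2 changes of 0.0015 for *Gpr17* at E18.5; of −0.013 (*Pdgfra*), −0.019 (*Cspg4*), −0.020 (*Olig1*), −0.013 (*Sox10*), −0.010 (*Gpr17*) and −0.0073 (*Enpp6*) in P21 midbrain; and of −0.0056 (*Cspg4*) and −0.0068 (*Sox10*) in P21 cortex, all opposite in sign to the values in the report. Leaving out single libraries gave these ranges of log2 change. At E18.5 they were −0.066 to 0.17 (*Bmp4*), −0.18 to 0.00046 (*Cspg4*), −0.28 to 0.057 (*Enpp6*), −0.12 to 0.16 (*Gpr17*), −0.0094 to 0.10 (*Nkx2-2*), −0.026 to 0.16 (*Olig1*), −0.096 to 0.027 (*Pdgfra*) and −0.095 to 0.19 (*Sox10*). In P21 midbrain they were −0.061 to 0.046 (*Cspg4*), −0.017 to 0.081 (*Enpp6*), −0.034 to 0.072 (*Gpr17*), −0.026 to 0.036 (*Olig1*), −0.025 to 0.072 (*Pdgfra*) and −0.025 to 0.065 (*Sox10*). In P21 cortex they were −0.18 to 0.00060 (*Bmp4*), −0.047 to 0.036 (*Cspg4*), −0.063 to 0.10 (*Nkx2-2*), −0.0053 to 0.080 (*Pdgfra*) and −0.049 to 0.046 (*Sox10*). The log2 ratios by genotype ranged, at E18.5, over −0.085 to 0.22 (*Bmp4* over *Gpr17*), −0.22 to 0.13 (*Enpp6* over *Pdgfra*), −0.053 to 0.12 (*Gpr17* over *Pdgfra*), −0.054 to 0.093 (*Olig1* over *Olig2*) and −0.10 to 0.078 (*Sox10* over *Olig2*). In P21 midbrain they were −0.057 to 0.039 (*Cspg4* over *Pdgfra*), −0.089 to 0.097 (*Enpp6* over *Pdgfra*) and −0.053 to 0.086 (*Gpr17* over *Pdgfra*), and in P21 cortex −0.093 to 0.044 (*Cspg4* over *Pdgfra*), −0.021 to 0.062 (*Gpr17* over *Pdgfra*) and −0.022 to 0.081 (*Olig1* over *Olig2*). The cause was not tested. Depth limits *Enpp6* most, at 7 to 36 counts in an E18.5 library.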
